A study of Mus musculus with 6 samples.

Results

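Mouse miRNA star strands, also called passenger strands, were measured on 6 arrays, each with RNA of the left upper lobe of a mouse's lung. The members were all mouse probe sets whose names end in star, 118 of the 609 mouse probe sets and of 7625 probe sets in all. Each was set beside the mouse probe set of the same name without star, which is called the main strand here and is context only. For 107 stars that name exists, for 10 with a hairpin number the name without the number was used, and miR-125b-star had no such partner, which left 117 pairs over 112 main strands. The 2 transgenic mice (TG, CC10-rtTA-IL13) carry a doxycycline-dependent transactivator behind the CC10 promoter of airway club cells, which switches on the type 2 cytokine interleukin 13. The 4 WT mice were wildtype. Both genotypes were on the C57BL/6 strain, aged 6 to 10 weeks, and received doxycycline at 2 mg/mL in drinking water for 7 days. A group with the transactivator alone was not analysed here, so its effect and that of interleukin 13 cannot be told apart. Interleukin 13 itself was not measured on these arrays, and the genotypes therefore rest on the labels.

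A miRNA hairpin is cut by Drosha and then by Dicer to a short duplex, and an Argonaute protein keeps 1 strand of it as its guide. The other strand is usually discarded and degraded, so that a star strand is as a rule much scarcer than its partner although both come from the same transcript. Some stars accumulate and can guide Argonaute to targets of their own, because their seed, bases 2 to 8, differs from that of the main strand. The star names have since been replaced by the arm of the hairpin, 5p or 3p.

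The sequences of the stars that were measured above background show how star and main strand differ. They are RefSeq sequences of assembly GRCm38.p6, 5′ to 3′, with the seed in capitals. The first 6 are the stars with the highest signal in WT whose sequence was matched, and the next 4 are stars whose TG values lay above all WT values and which are described below with their main strands.
miR-140-star (miR-140-3p): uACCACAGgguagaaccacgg
miR-24-2-star (miR-24-2-5p): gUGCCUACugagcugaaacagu
miR-34c-star (miR-34c-3p): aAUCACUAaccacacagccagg
miR-30a-star (miR-30a-3p): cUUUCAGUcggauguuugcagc
miR-17-star (miR-17-3p): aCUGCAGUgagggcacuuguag
miR-193-star (miR-193a-5p): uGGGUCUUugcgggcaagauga
miR-106b-star (miR-106b-3p): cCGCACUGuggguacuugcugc
miR-28-star (miR-28a-3p): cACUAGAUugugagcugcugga
miR-99b-star (miR-99b-3p): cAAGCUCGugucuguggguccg
miR-200b-star (miR-200b-5p): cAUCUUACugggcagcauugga

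The deposited table names stars without an arm. The arm came from the hairpin number in the RefSeq name for miR-24-2, miR-30c-2 and miR-181a-1 and from the established use of the names for the others, and 17 of 18 names looked up were found. Probe sets of other species that name the arm do not settle it everywhere: by signal the stars of miR-140, miR-30a, miR-425 and miR-674 lay nearest to the 3p probe sets, as assigned, while those of miR-28 and miR-34c lay nearer to the 5p ones and that of miR-193, assigned to 5p, nearer to the 3p ones. For miR-193 the mean distance was 0.814 log2 units to 3p and 0.849 to 5p, and for miR-17-star, assigned to 3p, 1.23 to 3p and 1.27 to 5p, so neither arm stood out. Of these 17 stars, 13 lie on the 3p arm and 4 on the 5p arm, they are 21 to 22 bases long, and 3 start with U against 6 of the 15 main strands found. They hold 16 different seeds. The shared seed is AUCUUAC, of miR-200a-star and miR-200b-star, whose main strands differ in seed. The reverse holds for miR-17 and miR-106b, whose main strands share the seed AAAGUGC while their stars differ, as these 4 sequences show.
miR-17 main (miR-17-5p): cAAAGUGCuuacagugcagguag
miR-106b main (miR-106b-5p): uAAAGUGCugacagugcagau
miR-200a-star (miR-200a-5p): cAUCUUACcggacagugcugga
miR-200b main (miR-200b-3p): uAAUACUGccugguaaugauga

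The hairpins of the pair of stars with the highest signal show where the star lies, with the star in capitals. Mir140 lies within the Wwp2 gene on the plus strand at chr8:107551244-107551313, and its star at bases 45 to 65 of the hairpin. Mir24-2 lies on the plus strand at chr8:84208815-84208921, with its star at bases 25 to 46.
Mir140 hairpin: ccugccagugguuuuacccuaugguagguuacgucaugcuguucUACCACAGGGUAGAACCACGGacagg
Mir24-2 hairpin: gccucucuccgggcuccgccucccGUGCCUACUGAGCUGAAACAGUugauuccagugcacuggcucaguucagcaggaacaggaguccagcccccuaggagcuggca

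Most stars were not detected. Detection required a log2 value over the 95th percentile of the plant miRNA probe sets on the same array, 4.22 and 4.25 on the TG arrays and 4.27 to 4.33 on the WT arrays. Of the 118 stars, 71 were detected on 0 arrays, 23 on 1 array and 24 on 2 or more arrays. The 24, which are 20.3% of the stars, were tested, as were 173 of the 491 other mouse probe sets, or 35.2%. Only miR-140-star, miR-24-2-star, miR-30a-star and miR-17-star were detected on all 6 arrays. The TG arrays detected 26 and 25 stars and WT replicates 1 to 4 detected 15, 21, 15 and 13, so the TG counts were the highest. With the highest of the 6 limits used for every array the counts were 21 and 19 in TG and 13, 20, 11 and 13 in WT, and with the 99th plant percentile 11 and 11 in TG and 5, 17, 9 and 2 in WT, so that WT replicate 2 then lay within or above TG. The number of other mouse probe sets detected moved with the number of stars, at 175 and 174 in TG and 119 to 151 in WT, and the part of this and of the limits in the star counts was not tested.

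The arrays themselves differed. The highest value of any probe set was 11.50 and 11.42 on WT replicates 1 and 4 and 13.13 to 13.36 on the other arrays. The main strand let-7b had values of 11.37 and 11.27 on WT replicates 1 and 4 and 13.07 to 13.22 on the others. WT means of such bright main strands therefore mix these levels, and the cause was not tested. Over the 24 tested stars the correlation across probe sets was r = 0.95 between the TG arrays, 0.92 and 0.90 between WT replicate 2 and TG, and 0.62 to 0.82 between WT replicate 4 and the other WT arrays. WT replicate 2 had the highest value of the 6 arrays for 9 of the 24 stars and WT replicate 4 the lowest for 10. All 4 listed airway epithelial miRNAs and the endothelial miR-126-3p were detected on 2 or more arrays, whereas of 5 leukocyte markers both strands of miR-142, the miRNA of all blood lineages, were at background on every array. The summed linear signal of the leukocyte markers was 379.2 to 434.3 in TG and 228 to 319 in WT, and that of the epithelial markers 1066 to 1175 in TG and 680.0 to 928 in WT. The endothelial miR-126-3p went the other way, with 632 to 647 in TG and 712 to 2333 in WT, and smooth muscle and erythroid markers overlapped between the groups. The epithelial sum mostly follows miR-200c, with log2 means of 9.99 in TG and 9.45 in WT. The means of miR-141 were 4.62 and 4.27, and those of miR-200b 5.61 and 5.64. None of the listed markers passed the threshold of the test below. The part of these markers in the star values was not tested. In a whole lobe, fewer cells of a type and less RNA per cell cannot be told apart.

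**Figure D1:**
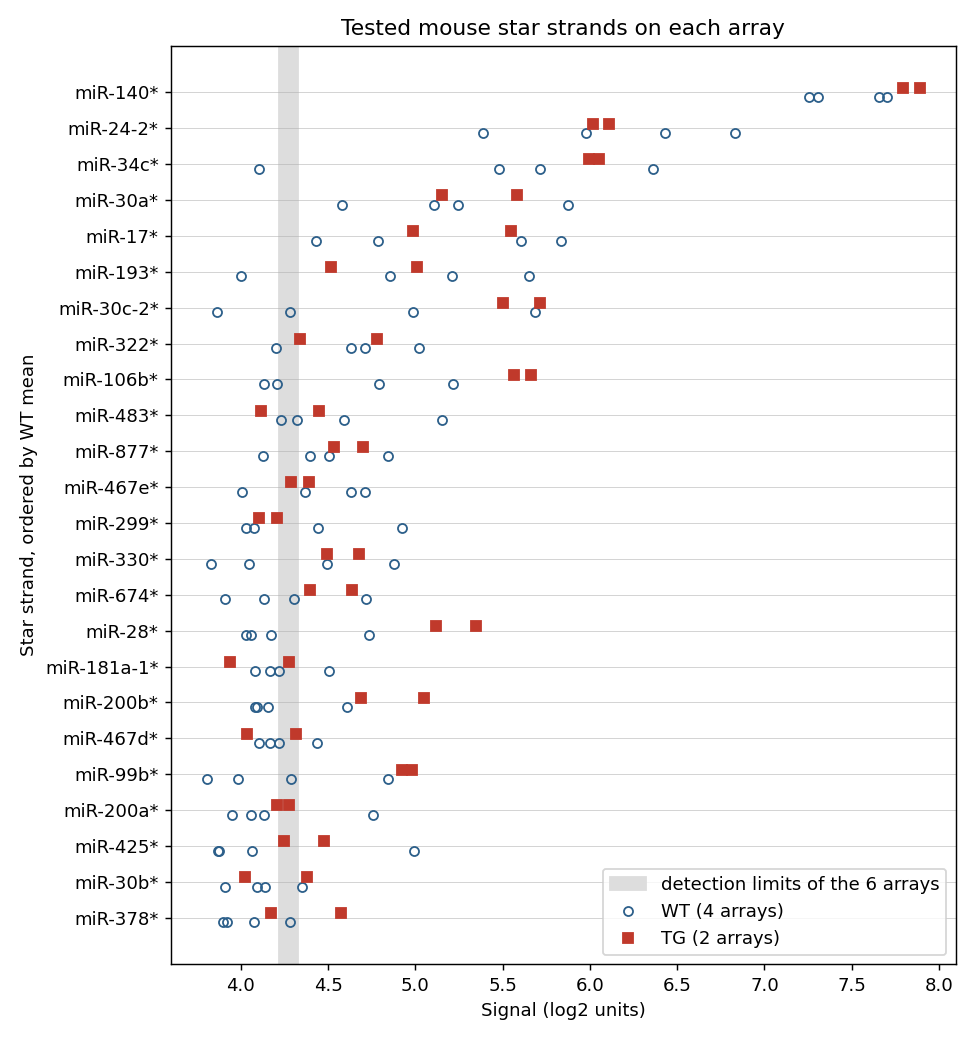
Signal (log2 units, horizontal axis) of the 24 tested star strands (vertical axis, marked with an asterisk) on each array, with filled squares for the 2 TG arrays and open circles for the 4 WT arrays. The grey band spans the detection limits, 4.22 to 4.33. miR-140-star stands furthest to the right, and most stars lie close to the band.

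miR-140-star was the star with the highest signal, and its main strand was not detected. miR-140 lies in an intron of Wwp2 and is best known from cartilage. Its star had log2 values of 7.89 and 7.79 in TG and 7.25, 7.66, 7.70 and 7.31 in WT. The main strand had a mean of 4.14 in TG and 4.02 ± 0.14 (SD, n = 4) in WT and was detected on 0 arrays. Probe sets that carry the arm in their name in human and macaque gave the same picture on these arrays, with means over the 6 arrays of 7.63 and 7.65 for miR-140-3p and of 4.08 and 4.05 for miR-140-5p. The rat probe set of miR-140-star had a mean of 7.60, equal to that of the mouse probe set at this precision.

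miR-24-2-star came next. miR-24 is made from 2 hairpins, and Mir24-2 sits beside the genes of miR-23a and miR-27a. miR-24-2-star had log2 values of 6.11 and 6.02 in TG and 5.98, 6.43, 5.39 and 6.83 in WT. The TG values lay inside the WT range. Its main strand miR-24 was far brighter, averaging 11.34 ± 0.14 in TG (SD, n = 2) against 11.07 ± 0.38 (SD, n = 4) for WT.

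miR-34c-star belongs to a family that is transcribed under p53 and is abundant in multiciliated airway cells. Its values were 6.05 and 5.99 in TG and 5.48, 6.36, 5.72 and 4.10 in WT. WT replicate 4 lay below its detection limit, and TG lay inside the WT range.

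The miR-30 family is abundant in lung, and miR-30a and miR-30c-2 are neighbouring hairpins on chromosome 1. miR-30a-star had values of 5.15 and 5.58 in TG and 5.11, 5.88, 5.24 and 4.58 in WT. miR-30c-2-star had values of 5.50 and 5.71 in TG and 4.28, 5.69, 4.99 and 3.87 in WT. For both, WT replicate 2 was the highest WT array and lay above at least 1 TG array.

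miR-17-star comes from the first hairpin of the miR-17 to miR-92a cluster, which promotes proliferation. Its values were 5.55 and 4.99 in TG and 4.79, 5.83, 5.61 and 4.43 in WT, so TG lay inside the WT range. miR-193-star had values of 5.01 and 4.52 in TG and 4.86, 5.65, 5.21 and 4.0004 in WT. miR-322-star, from the mouse counterpart of human miR-424, had values of 4.34 and 4.78 in TG and 4.71, 5.02, 4.20 and 4.63 in WT. In none of these 3 did the groups separate.

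Most pairs with a bright main strand had no tested star. Of the 117 pairs, both strands were tested in 16, the main strand alone in 50, the star alone in 8 and neither in 43. Among 18 pairs whose main strand had a WT mean of 8 or more, 5 had a tested star. Among 46 pairs whose main strand was detected on all 6 arrays, 15 had one, beside 24 of all 118 stars. let-7b, the brightest main strand of the pairs at a WT mean of 12.20 ± 1.02 (SD, n = 4), had a star at 4.14. The stars of let-7c-1 and let-7c-2 were at 3.94 and 3.90 in WT beside a main strand at 11.71, and those of miR-16 and miR-200c at 3.84 and 4.02 beside main strands at 9.09 and 9.45. These 5 stars were detected on 0 arrays.

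**Figure D2:**
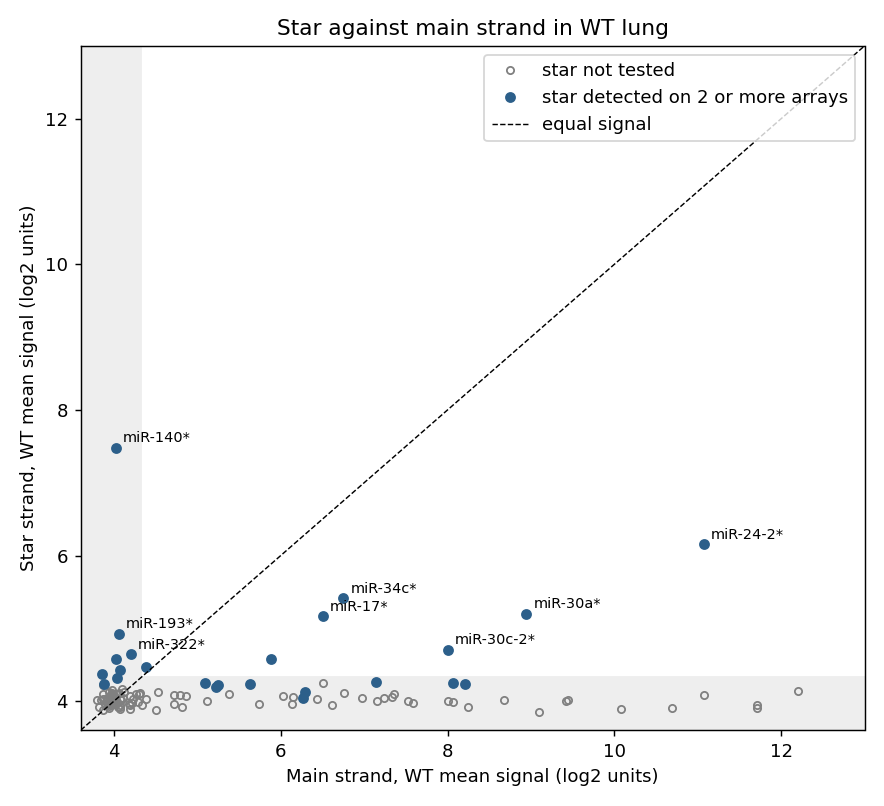
Mean WT signal (log2 units) of the star strand (vertical axis) against that of its main strand (horizontal axis) for 117 pairs, with filled points for tested stars and open points for stars that were not tested. Grey bands mark signals up to the highest detection limit, 4.33, and the dashed line marks equal signal. miR-140-star lies far above the line, and the open points run along the background up to the brightest main strands, with let-7b at 12.20.

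Probe sets differ in affinity, so a star minus main difference describes signal and not the ratio of RNA molecules. In the 16 pairs with both strands tested, the WT mean of star minus main on the log2 scale ran from -4.91 for miR-24-2 to 0.08 for miR-877. The median over the pairs, taken on each array, averaged -1.87 ± 0.70 in WT (SD, n = 4) and -1.74 ± 0.11 in TG (SD, n = 2). The star lay below its main strand on every array in 13 of the 16. The exceptions were miR-106b and miR-28, each on 1 array, and miR-877, a hairpin spliced out of Abcf1 as a short intron, on 3 arrays. For miR-877 the star was higher by only 0.04 to 0.23 there, and on WT replicate 3 both strands were under the limit. The 8 tested stars whose main strand was not tested were those of miR-140, miR-193, miR-322, miR-330, miR-467d, miR-467e, miR-483 and miR-299. All 8 had a mean above that of their main strand, and for miR-140 the star exceeded the higher of the main strand's value and the detection limit by 3.33 log2 units on average. For the other 7 that excess was at most 0.60, the value of miR-193. Over all 117 pairs 38 stars had a higher mean than their main strand, and in 30 of these neither strand was tested, that is, each strand was detected on at most 1 array.

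Main strands that are made from 2 hairpins have a star of their own for each, so each hairpin has a probe set that the main strand does not give. Because probe sets differ in affinity, a gap in signal between 2 such stars does not show which hairpin gave more RNA. miR-24-2-star was detected on 6 arrays with a WT mean of 6.16, and miR-24-1-star on 1 array with a WT mean of 4.09. miR-30c-2-star was detected on 4 arrays with a WT mean of 4.71, and miR-30c-1-star on 0 arrays, at 4.002. miR-181a-1-star was detected on 2 arrays with a WT mean of 4.24, and miR-181a-2-star on 0, at 3.99. In each of these 3 miRNAs a single hairpin thus had a tested star. Both stars of let-7c and of miR-218 were detected on 0 arrays.

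Whether stars differ between mice with the induced transgene and wildtype mice was tested for the 24. No star passed the threshold of an adjusted p under 0.05 (limma, adjusted over all 197 tested mouse probe sets), of which 3.05% passed. At an unadjusted p under 0.05 there were 3 stars, miR-28-star, miR-106b-star and miR-200b-star, or 12.5% of 24, each with the higher mean in TG, against 19.8% of the tested mouse probe sets in either direction and 17.3% with the higher mean in TG. For 5 stars, or 20.8%, the TG values exceeded every WT value, and for 0 they were under every WT value, against 29.4% and 6.6% of the tested mouse probe sets. The median difference over the 24 stars was 0.16 log2 units, with 16 above 0 and 8 below, beside 0.21 over all 197, of which 66% were above 0. Without the detection filter the median was 0.0071 over all 118 stars and 0.0076 over all 609 mouse probe sets.

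miR-28-star had the smallest p. It, miR-200b-star, miR-99b-star and miR-425-star were each detected on both TG arrays and on only 1 WT array. These 4 stars met the rule of 2 arrays only through TG, so their comparison of TG with WT is not independent of that rule. With 4 arrays needed for detection, none of the 4 was tested. miR-28 lies in Lpp, a gene of focal adhesion and smooth muscle biology, with the star at chr16:24827908-24827929 on the plus strand. Its log2 values were 5.12 and 5.35 in TG and 4.03, 4.73, 4.17 and 4.06 in WT, and in WT only replicate 2 was above its limit. TG exceeded WT by 0.98 ± 0.27 (SE) log2 units (limma adjusted p = 0.0974), which is 1.98-fold, or 1.77-fold with values under the limit raised to it.

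miR-106b-star comes from the hairpin of an Mcm7 intron that also gives miR-93 and miR-25, a cluster active in proliferating cells, and the star lies at chr5:138165746-138165767 on the minus strand. Its values were 5.57 and 5.66 in TG and 4.13, 5.21, 4.79 and 4.21 in WT, and the groups did not overlap. WT replicates 1 and 4 lay below their limits. The difference came to 1.03 ± 0.34 (SE) log2 units (limma adjusted p = 0.157), 2.04-fold, or 1.94-fold with the limit. miR-93-star, its neighbour, was detected on 1 array, with a mean of 4.29 in TG and 4.05 in WT.

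miR-200b-star comes from a family that keeps epithelial cells from turning mesenchymal through repression of Zeb1 and Zeb2, and lies at chr4:156055721-156055742 on the minus strand. Its values were 5.05 and 4.69 in TG and 4.08, 4.61, 4.09 and 4.15 in WT. Both TG arrays lay above WT replicate 2, the sole WT array over its limit. Its difference of 0.64 ± 0.26 (SE) log2 units (limma adjusted p = 0.231) is 1.55-fold, or 1.40-fold with the limit. The main strand of miR-200b had means of 5.61 in TG and 5.64 in WT. miR-200a-star, with the same seed as miR-200b-star, had means of 4.24 in TG and 4.22 in WT.

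miR-99b-star comes from a hairpin within Spaca6, in a cluster with let-7e and miR-125a, at chr17:17830232-17830253 on the plus strand. Its values were 4.98 and 4.93 in TG and 4.29, 4.84, 3.81 and 3.99 in WT, again with WT replicate 2 nearest to TG and alone above its limit. The TG mean was higher by 0.72 ± 0.32 (SE) log2 units (limma adjusted p = 0.249), 1.65-fold, or 1.43-fold with the limit. For miR-140-star, whose values are given above, TG also lay above WT, by 0.36 ± 0.24 (SE) (limma adjusted p = 0.427), but below it by 0.075 when arrays were centred on their tested mouse probe sets.

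The calls depended on which WT arrays were used and on whether arrays were weighted. Leaving out WT replicate 1, 3 or 4 gave no call among the stars. Without WT replicate 2, miR-28-star, miR-106b-star and miR-99b-star passed, with differences of 1.15, 1.24 and 0.93 and adjusted p of 0.0189, 0.0256 and 0.0491 by limma, while 14.2% of 190 tested mouse probe sets passed. With array weights the same 3 passed, beside 16.8% of 197. With only WT replicates 1 and 4, miR-28-star, miR-106b-star and miR-30c-2-star passed, beside 16.8% of 184, and with only WT replicates 2 and 3 no star passed, beside 3.21% of 187. On WT replicates 1 and 4 the stars of miR-28, miR-106b and miR-30c-2 were all under their limits, so they were tested there only through TG. Without WT replicate 2, miR-28-star and miR-99b-star were under the limit on every WT array left, and miR-106b-star on all but WT replicate 3. These calls are therefore not independent of the detection rule. Over the alternatives the adjusted p ran from 0.0126 to 0.554 for miR-28-star, from 0.0184 to 0.606 for miR-106b-star and from 0.0490 to 0.791 for miR-99b-star.

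Of the other stars given in full, miR-30c-2-star differed by 0.90 ± 0.48 (SE) (limma adjusted p = 0.342), and miR-34c-star of 0.61 ± 0.55. miR-378-star had values of 4.17 and 4.57 in TG and 3.92, 4.28, 4.07 and 3.90 in WT, a difference of 0.33 ± 0.24. miR-674-star had values of 4.64 and 4.40 in TG and 4.13, 4.72, 4.30 and 3.91 in WT. The groups overlapped in all 4, and the stars of miR-378 and miR-674 lay near the limits.

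miR-330-star had values of 4.68 and 4.496 in TG and 4.496, 4.88, 4.05 and 3.83 in WT. miR-483-star, from a hairpin in the imprinted Igf2 gene, had values of 4.12 and 4.45 in TG and 5.15, 4.59, 4.23 and 4.32 in WT, with the lowest difference of the 24 at -0.29 ± 0.31 (SE). miR-299-star, from the imprinted Dlk1-Dio3 region, had values of 4.11 and 4.21 in TG and 4.44, 4.07, 4.03 and 4.92 in WT. It was detected on 0 TG arrays and 2 of 4 WT arrays, and miR-483-star on 1 TG array and 2 WT arrays. Both thus met the rule of 2 arrays only through WT, so their comparison of TG with WT is not independent of that rule. The WT mean of miR-299-star, which includes 2 values under their limits, was 1.10-fold the mean of the TG detection limits. The difference was -0.21 ± 0.30 (SE) log2 units (limma adjusted p = 0.749). The groups overlapped in all 3.

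The remaining 7 tested stars, miR-877-star, miR-181a-1-star, miR-425-star, miR-467e-star, miR-467d-star, miR-30b-star and miR-200a-star, had means of 4.11 to 4.62 in TG and 4.12 to 4.47 in WT. Their differences ran from -0.14 to 0.16, with adjusted p of 0.821 to 0.972 by limma. Centring arrays on their tested mouse probe sets lowers every difference by the same 0.44 log2 units, so the sign of a small positive difference depends on the scaling.

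**Figure D3:**
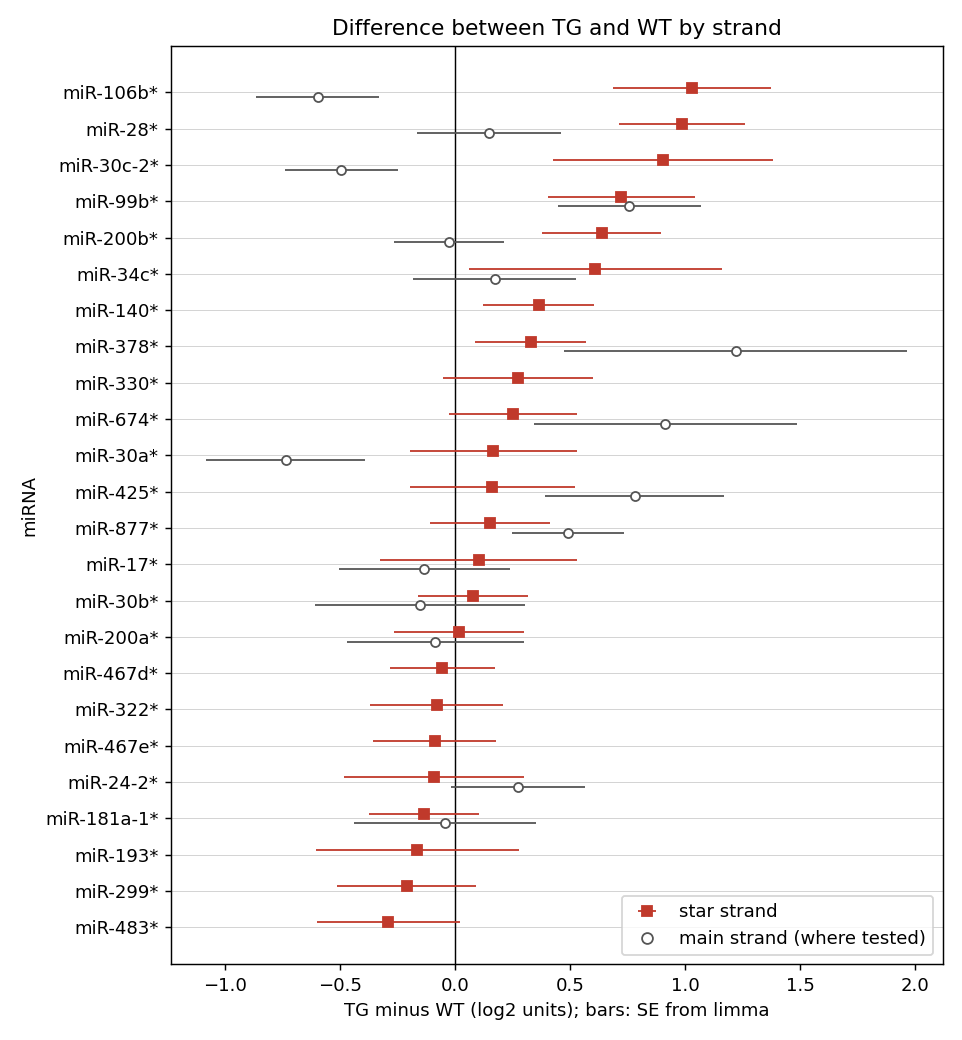
TG minus WT difference (log2 units, horizontal axis) of the 24 tested stars (filled squares) and of their main strands where tested (open circles), with bars of 1 SE from limma. miR-106b-star and miR-28-star lie furthest to the right, at 1.03 and 0.98, while the main strands of miR-106b and miR-30c lie left of 0.

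The differences of star and main strand were also set side by side. Over the 16 pairs with both strands tested, the differences of star and main correlated at r = -0.17 across pairs, which share the same 6 arrays, and 8 of the 16 had the same sign. None of the 16 main strands passed the threshold either. The change in star minus main between the groups cancels probe affinity only where both strands are above background. Where a star lies at background, the difference moves with its main strand. Among the pairs below, the star was under its limit on WT replicates 1, 3 and 4 for miR-28. It was so on WT replicates 1 and 4 for miR-106b, miR-30c-2 and miR-674, and on WT replicate 3 for miR-877. The change was tested per pair by an exact two-sided permutation test over the 15 splits of the arrays. Its smallest possible p is 0.0667, so that none of the 16 tests could reach 0.05. The 2 TG arrays lay outside the WT range in 5 pairs (31.2%), upwards in miR-106b, miR-28 and miR-30c-2 and downwards in miR-674 and miR-877. For the level of single probe sets, a different measure, TG lay above all WT values in 29.4% of the 197 tested mouse probe sets. It lay below all WT values in 6.6%, so the count of pairs does not stand out.

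For miR-106b, star minus main was 0.67 and -0.0021 in TG and -1.78, -0.63, -1.02 and -1.75 in WT. The main strand averaged 5.28 ± 0.54 in TG (SD, n = 2) against 5.88 ± 0.07 in WT (SD, n = 4). The change was 1.63 log2 units with an exact permutation p of 0.0667. With same-name mammalian probe sets averaged the change was 0.64.

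For miR-28, star minus main was -0.32 and 0.32 in TG and -0.59, -0.80, -0.73 and -1.23 in WT, a change of 0.84 with an exact permutation p of 0.0667, and of 0.14 with same-name mammalian probe sets averaged. The main strand of miR-28 had means of 5.23 in TG and 5.09 in WT. For miR-30c-2, star minus main was -1.91 and -1.89 in TG and -3.56, -2.09, -3.31 and -4.23 in WT, a change of 1.40 with an exact permutation p of 0.200. The closest array was WT replicate 2 for miR-30c-2 but WT replicate 1 for miR-28.

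For miR-877 the change was -0.34, from 0.08 ± 0.10 in WT (SD, n = 4) to -0.26 ± 0.26 in TG (SD, n = 2), with an exact permutation p of 0.0667. On WT replicate 3 both strands of miR-877 were under the limit. For miR-674 star minus main was -3.52 and -3.56 in TG and -3.25, -3.24, -3.23 and -1.79 in WT, and the exact permutation p was 0.333. WT replicate 4 lay far from the other 3, with the star under its limit and the main strand at 5.70, against 7.38 to 7.96 on the other WT arrays. In the other 11 pairs the groups overlapped. Among them miR-99b had nearly equal means, at -4.02 ± 0.21 for TG (SD, n = 2) against -3.98 ± 0.37 (SD, n = 4) for WT, with differences of 0.72 for its star and 0.76 for its main strand.

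**Figure D4:**
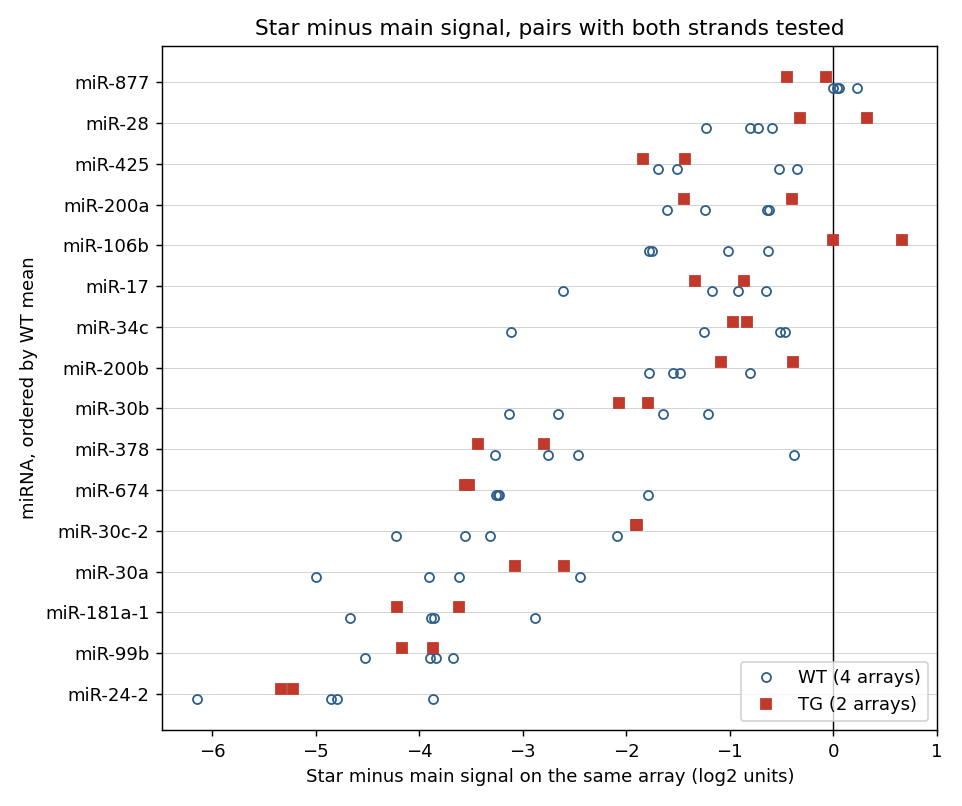
Star minus main signal on the same array (log2 units, horizontal axis) for the 16 pairs with both strands tested, with filled squares for the 2 TG arrays and open circles for the 4 WT arrays. miR-106b and miR-28 reach 0.67 and 0.32 on a TG array, while miR-24-2 reaches -6.14 on a WT array.

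Other mammals' probe sets of the same star name lie on the same arrays and add no animals. Of the 24 tested stars 18 had at least 1, 25 probe sets in all, of which 20 were detected on 2 or more arrays and 18 of these 20 had the sign of the mouse difference. For miR-106b-star the human and rat probe sets had differences of 0.32 and 0.43 beside 1.03 for mouse, and for miR-99b-star 0.34 and 0.80 beside 0.72. For miR-200b-star the human probe set differed by 0.45 beside 0.64. For miR-28-star the rat probe set was detected on 0 arrays and the human miR-28-3p probe set had a mean of 4.02, so neither of these probe sets showed the signal of the mouse one.

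For some stars the level depended on the species of the probe set. For miR-17-star the human probe set had a mean of 4.09 and the 15 probe sets named miR-17-3p of other vertebrates had means of 3.92 to 4.06, against 5.20 for mouse. miR-24-2-star had a mean of 6.13 with the mouse probe set, 6.28 with that of rat and 4.06 with that of human. For miR-34c-star the rat probe set had a mean of 5.76 beside 5.62 for mouse, and the human and macaque miR-34c-3p probe sets had means of 4.14 and 4.29. The main strand of miR-17 gave means of 6.25 to 6.62 over 15 probe sets named miR-17-5p, so this spread between species was not seen there.

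By families of the host hairpin, 9 of 19 lists held a tested star, and no list held a called star. The miR-30 family had 3 tested of 5 stars, with differences all above 0 and a median of 0.17. The miR-17 clusters had 2 of 8, miR-17-star and miR-106b-star, and the miR-200 family 2 of 4, miR-200a-star and miR-200b-star, with medians of 0.57 and 0.33, beside 0.21 over all tested mouse probe sets. The Sfmbt2 cluster, a rodent expansion of related hairpins, had 2 of 6, both with differences below 0 and a median of -0.07. The lists of miR-24-2-star, miR-34c-star, miR-99b-star, miR-181a-1-star and, from Dlk1-Dio3 with 13 stars, miR-299-star had 1 tested star each. The let-7 family had 8 stars and 0 tested. Of the stars of miRNAs known to respond to inflammation, miR-21-star and miR-31-star were detected on 0 arrays and miR-146b-star on 1, TG replicate 1, at 4.47. The other 7 lists with stars had 0 tested, 1 list had no star, and 10 tested stars belonged to no list.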

How the data were processed

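The labels' protocols state TRIzol extraction and biotin labelling by the Affymetrix procedure. The authors deposited a table with a value for every probe set on each array, taken as log2 because the values run from 3.37 to 13.36 with a floor near 4, so the base is inferred. For background correction, summarization, normalization and miRBase version, the entry is: not given in the sources used here. Plant probe sets (1631) set each array's detection limit, and the number of arrays limits the precision.

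Mouse probe sets detected on 2 or more of the 6 arrays (197) were compared between TG and WT with limma 3.58.1 in R 4.3.3 (lmFit, eBayes, two-sided, Benjamini-Hochberg, no covariate), after a check on simulated data. The labels call the samples biological replicates. Every tested star is named. Values on every array are given for stars whose groups do not overlap, for the 12 smallest p and for the 10 highest WT means. The members and lists were chosen with earlier results of these data known. Alternatives were no filter, the 99th plant percentile, 4 arrays for detection, quantile normalization, centring on the tested or plant median, array weights, averaging of same-name mammalian probe sets, leaving out each array and the replicate number as a block. After the data had been seen, subsets of WT arrays, the arrays numbered 1 and 2 without a block, and the highest limit for every array were added. Sequences were copied from RefSeq tables of GRCm38.p6, and the deposited table names no genome build.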

Additional observations from a re-analysis of the deposited data

Results flagged for a closer look

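Among 41 groups of 4 WT values tested for a value far from the others (Dixon's test at 95%, which flags about 1 in 20 groups by chance), 2 stood out. The level of miR-200b-star in WT replicate 2 was 4.61, while the other WT arrays lay between 4.08 and 4.15, a gap of 0.857 of the range. Star minus main of miR-674 in WT replicate 4 was -1.79, while the other WT arrays lay between -3.25 and -3.23, a gap of 0.986 of the range. On that array the star was at 3.91, under the limit of 4.33. The main strand was at 5.70 there, against 7.38 to 7.96 on the other WT arrays.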

How the results depend on the processing

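The 24 star differences were recomputed under 18 alternatives, which gave 386 values, of which 317 kept direction and side of the threshold, 60 turned direction and 9 passed the threshold that the reported value missed. The stars of miR-28, miR-106b, miR-30c-2, miR-99b, miR-200b, miR-299 and miR-483 kept their direction in every alternative that gave them a value (18 for miR-106b and miR-30c-2, 11 for miR-299, 17 for the others), and the other 17 stars turned at least once. Of those that kept it, miR-28-star, miR-99b-star and miR-200b-star met the detection rule only through TG, and miR-299-star and miR-483-star only through WT. Of the turned values, the 10 under centring follow from 1 shared shift of -0.44. The cause was not tested. Instead of 6, the mouse probe sets past the threshold numbered 1 without the detection filter, 2 with the 99th percentile, 1 with 4 arrays for detection, 0 after quantile normalization, 2 after centring on the tested median, 33 with array weights, 14 with mammalian probe sets averaged, 12 with the replicate block, 0 with the arrays numbered 1 and 2 unpaired, 31 with only WT replicates 1 and 4, and 0 to 27 leaving out 1 array. Instead of 0, the stars past it numbered 3 when arrays were weighted, 3 using only WT replicates 1 and 4, and 0 to 3 leaving out 1 array. Stars detected were 13 with the 99th percentile and 13 with 4 arrays. The median star difference was 0.0071 without the filter, -0.28 after centring on the tested median and 0.49 with only WT replicates 1 and 4. The median star minus main was -0.28 in WT and -0.31 in TG without the filter, -1.15 in TG with the 99th percentile -1.53 in TG with 4 arrays, and, leaving out 1 array, -1.79 to -1.43 in TG and -2.06 (without WT replicate 2) to -1.27 (without WT replicate 4) in WT. Pairs whose groups did not overlap, 5 as reported, numbered 2 with mammalian probe sets averaged and 5 to 9 leaving out 1 array. With the replicate block, 11 pairs changed in the same direction within both numbers.

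Turned differences on the log2 scale were as follows. Quantile normalization gave -0.13 for miR-17-star, -0.11 for miR-30a-star and -0.093 for miR-877-star. Centring on the tested median gave -0.075 for miR-140-star, -0.34 for miR-17-star, -0.42 for miR-200a-star, -0.27 for miR-30a-star, -0.36 for miR-30b-star, -0.16 for miR-330-star, -0.11 for miR-378-star, -0.28 for miR-425-star, -0.19 for miR-674-star and -0.29 for miR-877-star. Array weights gave -0.018 for miR-17-star, 0.18 for miR-24-2-star and 0.039 for miR-322-star. Averaging mammalian probe sets gave 0.0053 for miR-193-star and -0.020 for miR-877-star. The replicate block, and equally the arrays numbered 1 and 2 unpaired, gave -0.044 for miR-17-star, -0.20 for miR-200a-star, -0.12 for miR-30a-star, -0.044 for miR-30b-star, -0.10 for miR-330-star, -0.072 for miR-425-star, 0.15 for miR-467e-star and -0.054 for miR-877-star. The labels do not say that the numbers pair mice, and the deviations of the 2 same-numbered pairs of arrays, correlated at -0.21 and 0.074, do not settle it. With only WT replicates 2 and 3 the values were -0.45 for miR-17-star, -0.11 for miR-200a-star, 0.16 for miR-24-2-star, -0.19 for miR-30a-star, -0.019 for miR-30b-star, -0.017 for miR-34c-star and -0.17 for miR-425-star. With only WT replicates 1 and 4 they were 0.34 for miR-193-star, 0.021 for miR-467e-star and -0.0021 for miR-877-star. Leaving out 1 array gave ranges of -0.18 to 0.38 for miR-17-star, -0.30 to 0.14 for miR-322-star, -0.19 to 0.034 for miR-181a-1-star, -0.47 to 0.081 for miR-193-star, -0.051 to 0.39 for miR-30a-star, -0.10 to 0.083 for miR-467d-star, -0.07 to 0.054 for miR-200a-star, -0.23 to 0.0057 for miR-467e-star and -0.35 to 0.13 for miR-24-2-star. A TG group left with 1 array is assumed to vary like WT. The 94 stars under the detection rule were not tested, so a difference in them was not detectable by this test.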

Other observations

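Of the 23 stars detected on a single array, 22 had a main strand, and the single array was a TG array for 10 and a WT array for 12. On that array 8 of the 22 lay above their main strand. The stars of miR-196a and miR-872 did so on WT replicate 1, at 4.52 and 4.31, those of miR-19a and miR-9 on WT replicate 3, at 4.31 and 4.30, that of miR-712 on WT replicate 4, at 4.42, and that of miR-485 on TG replicate 2, at 4.28. The main strands of these 6 were detected on 0 arrays. The other two were miR-29c-star on WT replicate 1, at 4.56 beside 4.02, and miR-374-star on WT replicate 3, at 4.38 beside 4.33. The highest single value among the stars that were not tested was 4.75, of miR-214-star on TG replicate 1, beside a main strand at 7.56.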
